A study of Homo sapiens with 3 samples.

Results

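The apolipoproteins of liver lipoproteins were followed in HepG2, an established human liver tumour line that secretes lipoproteins, after exposure to 2 graphene nanomaterials. The family was a named list of 10 genes (APOA1, APOA2, APOA4, APOA5, APOB, APOC1, APOC3, APOE, APOH and APOM) out of 18417 genes that had a probe set with 1 gene symbol, and it was covered by 15 such probe sets. There was 1 array for a 24 h treatment with graphene oxide (GO), 1 for a 24 h treatment with reduced graphene oxide (rGO), which carries fewer oxygen groups, and 1 for untreated control cells. Each material was given in culture medium at its own EC20, the dose tied to a 20% effect in viability assays. The labels give no concentrations, so the GO and rGO doses may differ. With 1 array per group there are no replicates: each value below is a single measurement or a difference of 2 of them, without an error or a test, and variation between dishes cannot be told apart from an effect of exposure.

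Apolipoproteins coat the lipid particles that carry triglyceride and cholesterol in plasma, and hepatocytes make most of them. Very-low-density lipoprotein (VLDL) is built in the hepatocyte around APOB and exports triglyceride, the small exchangeable apolipoproteins tune its breakdown and uptake, and high-density lipoprotein (HDL) is built around APOA1 and takes up cholesterol from cells. Many of these genes are transcribed under nuclear receptors and forkhead factors of the hepatocyte.

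APOM and APOC1 were the members with the largest differences between GO and control, and APOH was the member furthest below control. For these 3 the 250 bases before a start listed among the RefSeq promoters (build GRCh38.p14) are shown, 5′ to 3′ on the gene's strand. A gene can have several listed starts, and whether a listed start is the first base of the gene was not checked. The stretches shown lie at chr6:31655644-31655893 (plus strand), chr19:44914422-44914671 (plus strand) and chr17:66229416-66229665 (minus strand). Capitals mark matches, on either strand, to 4 motifs of 6 letters: the nuclear receptor half-site AGGTCA, the TATA box TATAAA, the core TCAAGG of sites for the liver receptor NR5A2, and the core TGTTTA of sites for the forkhead FOXA proteins.
APOM: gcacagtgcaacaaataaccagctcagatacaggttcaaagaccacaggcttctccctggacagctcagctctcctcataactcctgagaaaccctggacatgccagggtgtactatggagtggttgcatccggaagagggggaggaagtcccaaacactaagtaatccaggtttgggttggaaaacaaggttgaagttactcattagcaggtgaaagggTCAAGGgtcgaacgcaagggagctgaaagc
APOC1: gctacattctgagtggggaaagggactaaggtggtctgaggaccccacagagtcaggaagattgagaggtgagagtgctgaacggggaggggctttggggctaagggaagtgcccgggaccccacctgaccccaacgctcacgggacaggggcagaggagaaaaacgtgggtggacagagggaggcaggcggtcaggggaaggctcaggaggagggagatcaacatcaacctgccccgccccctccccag
APOH: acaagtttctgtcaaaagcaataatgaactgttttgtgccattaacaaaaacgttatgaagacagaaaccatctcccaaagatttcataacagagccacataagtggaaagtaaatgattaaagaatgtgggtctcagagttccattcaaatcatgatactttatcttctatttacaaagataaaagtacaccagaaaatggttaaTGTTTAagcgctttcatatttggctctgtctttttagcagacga

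The stretch shown for APOM held 1 match, TCAAGG at positions -30 to -25 (position -1 is the base just before the listed start). The stretch shown for APOC1 held 0 matches to the 4 motifs. The stretch shown for APOH held 1 match, TGTTTA at -44 to -39. Among all 35116 stretches of the same length in the RefSeq promoter table, 10.5% held TCAAGG and 11% held TGTTTA, while AGGTCA was in 12.1% and TATAAA in 10.7%. Of the 10 members, 7 had an entry in that table; APOA1, APOB and APOC3 did not. APOA2 held TGTTTA at 2 places and APOA5 held AGGTCA at 2 places in its first entry, while APOA4 held 0 of the motifs and the first entry of APOE held TCAAGG. APOH had the lowest G and C content of these stretches, 33.2%, against 50.4% for APOM, 62.4% for APOC1 and a median of 58.0% over the table. These are matches of letters, and nothing was measured on binding at any of them.

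After GO, 2 of the 10 apolipoproteins were at least 1.5-fold higher than in control cells, APOM and APOC1, and 0 were at least 1.5-fold lower. APOA1 and APOA2, the structural proteins of HDL, were higher by less than that, APOB, APOC3, APOA4, APOA5 and APOE lay within 0.12 log2 units of control, and APOH was 1.25-fold lower. After rGO, 0 members reached 1.5-fold in either direction, and APOM, with 1.23-fold, was again the highest. A level filter kept the 11050 genes with a 3-array mean at or over the 40th percentile (log2 6.66). Of these, 1.91% met the 1.5-fold size on the high side with GO and 4.23% on the low side, and with rGO these shares were 0.0271% and 0.127%. Of the 10 members 9 passed that filter; APOA4 lay below it. At 1.2-fold, 3 members were higher with GO (APOM, APOC1 and APOA1) and 1 lower (APOH), where 14% and 17% of all genes were, and with rGO 1 was higher (APOM) and 0 lower, where 1.53% and 3.06% were. At 2-fold 0 members counted in either exposure, where 0.253% (higher) and 0.914% (lower) of genes did with GO and 0% and 0.0181% did with rGO.

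**Figure D1:**
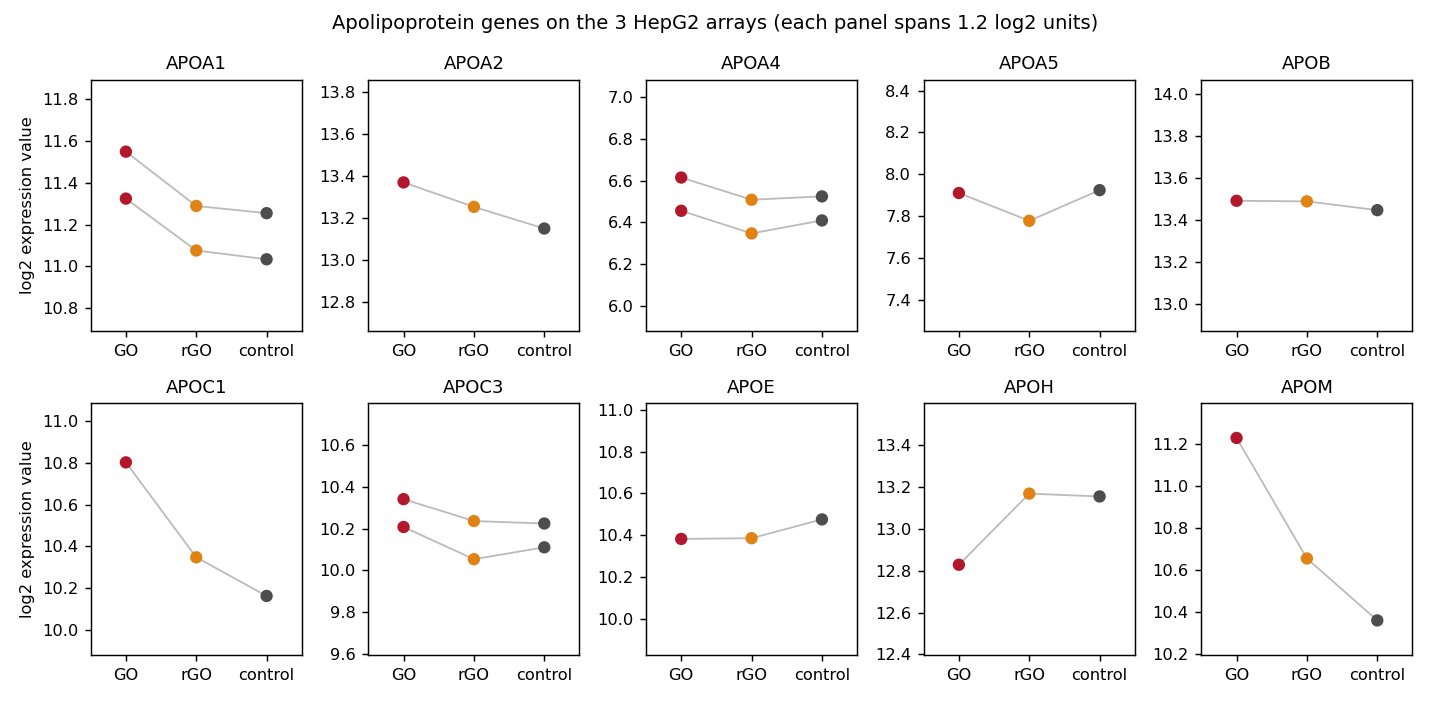
Log2 expression value of each apolipoprotein (vertical axis) on the GO, rGO and control arrays (horizontal axis), with each point 1 probe set on 1 array, lines joining a probe set across arrays, and every panel spanning the same 1.2 log2 units. APOM and APOC1 are highest with GO, APOH is lowest with GO, and the 2 probe sets of APOA1, of APOA4 and of APOC3 run nearly parallel.

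The deposited values were log2 expression values of 33297 probe sets per array, and the 3 arrays had near-equal distributions with medians of 6.63 (GO), 6.66 (rGO) and 6.65 (control). Hepatocyte markers were high on all 3 arrays: all 12 stood over the filter level, with medians of 12.20 (GO), 12.22 (rGO) and 12.25 (control). Of markers of other cell types, 5 of 8 enterocyte, 2 of 8 leukocyte and 1 of 9 fibroblast and endothelial genes reached the filter level on each array. The enterocyte genes are of interest because the intestine is the other organ that makes APOA1, APOA4 and APOB. FABP2 and SI, defining genes of the absorptive enterocyte, were at 5.07 and 3.72 (GO), 5.50 and 3.67 (rGO) and 5.53 and 3.56 (control), below the filter level throughout. LCT, the third marker of this list below the filter, was at 5.81 (GO), 5.71 (rGO) and 5.73 (control). VIL1 was at 10.94 (GO), 10.94 (rGO) and 10.92 (control) and ANPEP at 11.51 (GO), 11.16 (rGO) and 11.02 (control), and CDX1, CDX2 and ALPI lay between 6.69 and 7.20 on the 3 arrays. All 3 samples are labelled as HepG2, and the source of these marker signals was not tested. The spread of a difference between probe sets of the same gene, scaled to 1 probe set, had, over 378 genes, a robust SD of 0.080 (GO minus control), 0.059 (rGO against control) and 0.073 (GO against rGO). It leaves out 53 genes whose probe sets held identical values and does not cover variation between dishes of cells. Whether the probe sets of a gene share probes was not checked, and shared probes would make this spread too small.

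Of the HDL proteins among the 10 members, APOM stood furthest from control. APOM is a lipocalin that rides on HDL and carries sphingosine 1-phosphate. Its log2 value was 11.23 with GO, 10.65 with rGO and 10.36 in control. The GO array was therefore the highest and the control array the lowest. The differences were 0.87 for GO minus control (1.83-fold), 0.30 for rGO minus control and 0.58 for GO minus rGO (1.49-fold). APOM ranked 47th from the top of the 11050 genes for GO minus control, 102nd for rGO minus control and 208th for GO minus rGO. Both differences from control use the same control array, so a low control value would raise both. The 3 probe sets of APOM held identical values and count as 1 measurement.

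APOA1, the main structural protein of HDL and the acceptor of cholesterol from cells, had 2 probe sets. The brighter one read 11.55 with GO, 11.29 with rGO and 11.25 in control, and the other 11.32 with GO, 11.08 with rGO and 11.03 in control. Both placed GO highest and put rGO next to control. The GO minus control difference was 0.29 in each of the 2 probe sets, and the rGO minus control difference was 0.03 in the brighter and 0.04 in the other. The probe sets differed in the GO difference by 0.0038 log2 units, and whether they share probes was not checked.

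APOA2, the second structural protein of HDL, was measured by 1 probe set at 13.37 with GO, 13.25 with rGO and 13.15 in control. The 3 arrays were in the same order as for APOM and APOA1, with smaller steps. The differences were 0.22 for GO minus control (1.16-fold) and 0.10 for rGO minus control, and 18.4% and 16.6% of genes past the filter lay higher in these comparisons. APOA2 was among the brightest signals, with 99.7% of probe sets below its mean level. Array signals can flatten near the top of the scale, and whether this touched APOA2 was not tested.

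APOB is the large structural protein of VLDL and of the low-density lipoprotein formed from it, and each particle carries a single copy. Its value was 13.49 with GO, 13.49 with rGO and 13.45 in control. The 3 arrays spanned 0.045 log2 units, less than the probe set spread. The difference was 0.04 for both GO minus control and rGO minus control. Of all probe sets, 99.9% had a lower mean level than APOB, so the remark on bright signals holds for it too.

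APOC1 and APOC3 are small proteins that move between particles. APOC1 inhibits the cholesteryl ester transfer protein and slows the uptake of remnants, and APOC3 inhibits lipoprotein lipase. APOC1 was at 10.80 with GO, 10.35 with rGO and 10.16 in control, again with GO highest and control lowest. Its differences were 0.64 for GO minus control (1.56-fold), 0.18 for rGO minus control and 0.45 for GO minus rGO. APOC1 ranked 165th from the top of 11050 genes for GO minus control and 583rd for rGO minus control. It was measured by 1 probe set, and with GO it exceeded the 1.5-fold size (0.58) by less than the probe set spread of 0.080. APOC3 read 10.34 with GO, 10.24 with rGO and 10.22 in control on its brighter probe set. On the other it read 10.21 with GO, 10.05 with rGO and 10.11 in control. The 2 probe sets of APOC3 agreed that GO lay above control, by 0.12 and 0.10, and gave opposite signs for rGO minus control, 0.01 and -0.06.

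APOA5 and APOA4 were the weakest signals of the family. APOA5, which promotes the lipolysis of triglyceride-rich particles, was at 7.91 with GO, 7.78 with rGO and 7.92 in control. The GO and control arrays differed by -0.01, and the rGO array lay below control by more (-0.15), the lowest rGO difference of the family, with 13.1% of genes past the filter lower. APOA4, made mostly by the intestine, read 6.61 with GO, 6.51 with rGO and 6.52 in control on its brighter probe set and 6.46, 6.35 and 6.41 in the same order on the other. Its GO minus control differences were 0.09 and 0.05, near the spread between probe sets, and at this level background signal can hide a difference.

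APOE, the ligand through which remnants enter liver cells, was at 10.38 with GO, 10.39 with rGO and 10.48 in control. Both exposed arrays lay on the same side of the control array and differed from each other by less than 0.01. The difference was -0.09 for GO minus control and -0.09 for rGO minus control (1.07-fold and 1.06-fold lower), and GO minus rGO was -0.0035. The first of these is close to the probe set spread of 0.080, and both share the control array.

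APOH, also called beta-2-glycoprotein I, is a plasma protein that binds anionic phospholipids and only partly travels on lipoproteins. It was at 12.83 with GO, 13.17 with rGO and 13.15 in control. The GO array stood below both others, which lay together. The differences were -0.33 for GO minus control (1.25-fold lower), 0.01 for rGO minus control and -0.34 for GO minus rGO. Of genes past the filter, 13.1% lay lower for GO minus control, so the position of APOH was not an extreme one on that array. Its mean level exceeded that of 99.6% of probe sets.

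Over all 10 members the median GO minus control difference was 0.10, with 7 above 0 and 3 below, and over the 9 past the filter it was 0.12 with 6 above 0 (7 after quantile normalization or median centring, when APOA5 changed sign). The median of all 11050 genes was 0.01, and 51.1% of them lay above 0. The members' values ran from -0.33 to 0.87. Their robust SD was 0.23 over all 10 and 0.26 over the 9 past the filter, against 0.24 for all genes past the filter. This measure gives little weight to the largest differences, such as those of APOM and APOC1. For rGO minus control the median was 0.02 over the 10 members, with 7 above 0 and 3 below, and 46.8% of all genes lay above 0. Over the 9 past the filter it was 0.03 with 7 above 0, or 5 after median centring, when APOC3 and APOH changed sign. The count was 6 after loess, when APOH changed sign, and 6 with averaged probe sets, when APOC3 did. The rGO values ran from -0.15 to 0.30, and 6 of the 10 lay within 0.1 log2 units of control, as did 60.5% of all genes past the filter.

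**Figure D2:**
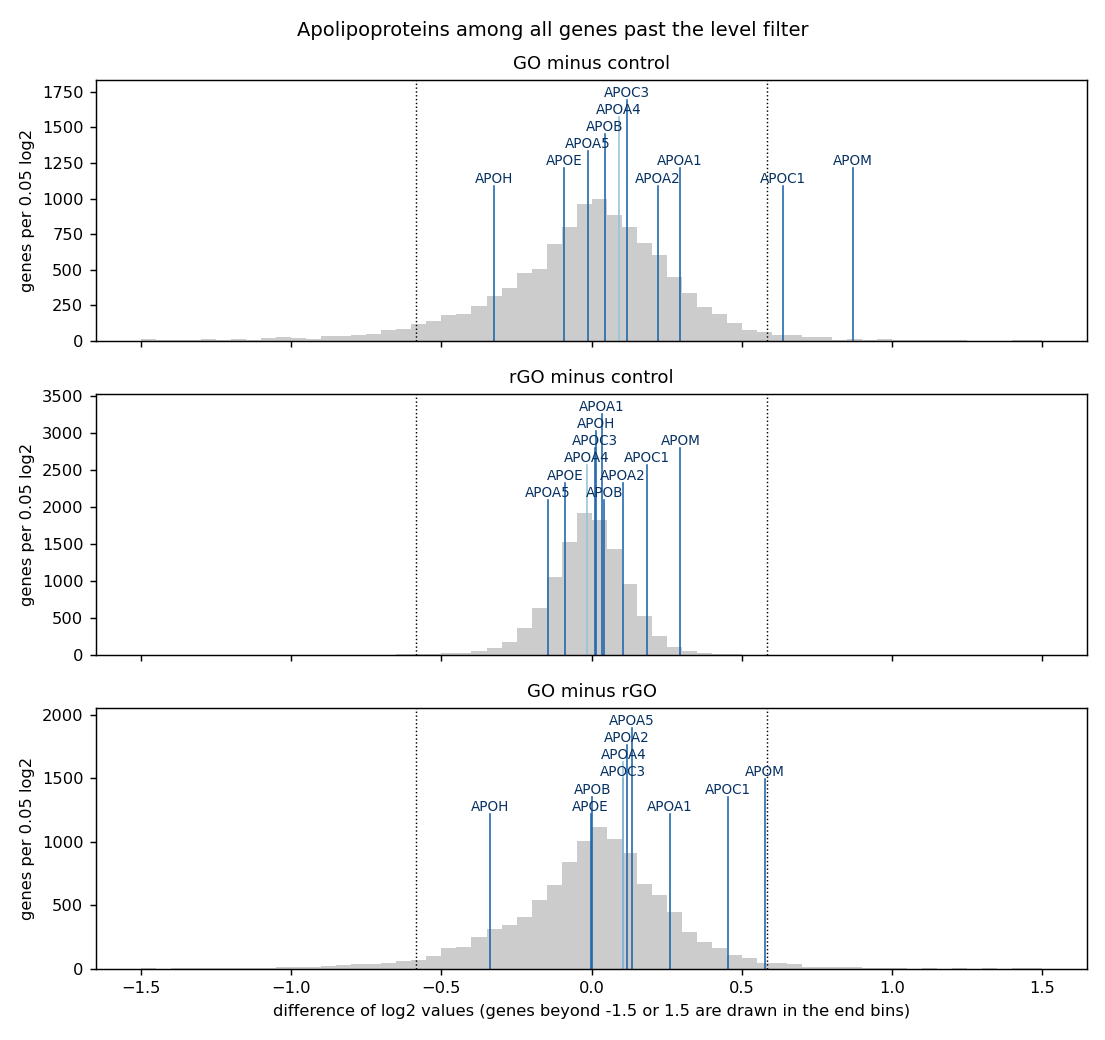
Number of genes past the level filter per 0.05 log2 units (vertical axis) against the difference of log2 values (horizontal axis) in the 3 comparisons (panels), with blue lines at the apolipoproteins (light blue for APOA4, below the filter) and dotted lines at 1.5-fold. APOM (0.87) and APOC1 (0.64) lie beyond the upper dotted line for GO minus control, no member does for rGO minus control, and APOM (0.58) stops just short of it for GO minus rGO.

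Set directly against each other, the GO array was higher than the rGO array for 8 of the 10 members, with a median of 0.11, and 52.9% of all genes were above 0. APOM (0.58), APOC1 (0.45) and APOA1 (0.26) were the highest, and APOH (-0.34) was the lowest. APOB and APOE, at 0.0027 and -0.0035, had nearly the same value in both exposed arrays. At 1.5-fold 0 members counted as higher and 0 as lower, where 1.82% and 3.2% of all genes did. At 1.2-fold 2 members (APOM and APOC1) were higher and 1 (APOH) was lower, beside 12.8% and 14.8% of all genes, and at 2-fold 0 members counted, beside 0.262% and 0.534%. APOM was just under 1.5-fold, and it passed 1.5-fold (1 member higher) when the arrays were rescaled by quantile normalization, median centring or a loess on level. Of all genes past the filter, 2.14%, 2.18% and 1.91% were that much higher after these rescalings. In 6 members the order of the arrays was GO, then rGO, then control from high to low, an order that 24.2% of genes past the filter had. These 6 were APOA1, APOA2, APOB, APOC1, APOC3 and APOM, and in APOA1, APOB and APOC3 the step between rGO and control was smaller than the probe set spread of 0.059.

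Several of the genes are neighbours in the genome. APOA5, APOA4, APOC3 and APOA1 follow each other in RefSeq gene order on chromosome 11 and gave GO minus control differences of -0.01, 0.09, 0.12 and 0.29 in that order. Their rGO minus control differences were -0.15, -0.02, 0.01 and 0.03. Values thus went up along the cluster from the APOA5 end to the APOA1 end in both comparisons, which share the control array. They also went up when the less bright probe sets of APOA4, APOC3 and APOA1 were read. For GO minus rGO, without the control array, the differences were 0.13, 0.11, 0.10 and 0.26 in the same order, not a steady rise. The rGO minus control differences of APOA4, APOC3 and APOA1 were smaller in size than the probe set spread of 0.059. With GO, APOA4 (0.09) and APOC3 (0.12) lay closer together than the probe set spread of 0.080, and APOA4 was below the level filter. Beyond APOA1 the next measured gene, the kinase SIK3, stood at 0.39 (GO) and 0.21 (rGO), and beyond APOA5 the zinc finger gene ZPR1 stood at -0.11 (GO) and -0.13 (rGO).

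APOE and APOC1 are adjacent on chromosome 19 and are known to share distant liver enhancers, yet their values parted. APOC1 was 0.64 above control with GO and APOE was 0.09 below it, and with rGO the differences were 0.18 for APOC1 and -0.09 for APOE. On the far side of APOE the mitochondrial import channel gene TOMM40 stood at 0.08 (GO) and 0.04 (rGO), and on the far side of APOC1 the next gene with a usable probe set, CLPTM1, stood at 0.31 (GO) and 0.02 (rGO). APOM lies on chromosome 6 between the chaperone gene BAG6, at 0.37 (GO) and -0.02 (rGO), and C6orf47, at -0.12 (GO) and 0.01 (rGO). Neither neighbour of APOM came within 0.4 log2 units of its GO difference.

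The other members lie apart from the rest of the family. APOA2, on chromosome 1, lies between FCER1G (0.37 with GO and -0.08 with rGO, at levels below the filter) and TOMM40L (-0.04 and -0.11). APOB, on chromosome 2, lies between the lipid droplet hydrolase gene LDAH, at -0.0020 (GO) and 0.08 (rGO), and KLHL29, at 0.20 (GO) and 0.0026 (rGO) and below the filter. APOH, on chromosome 17, lies between CEP112 (-0.03 and 0.14, below the filter) and the kinase gene PRKCA (0.16 and 0.13), with the GO difference given first in each pair.

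**Figure D3:**
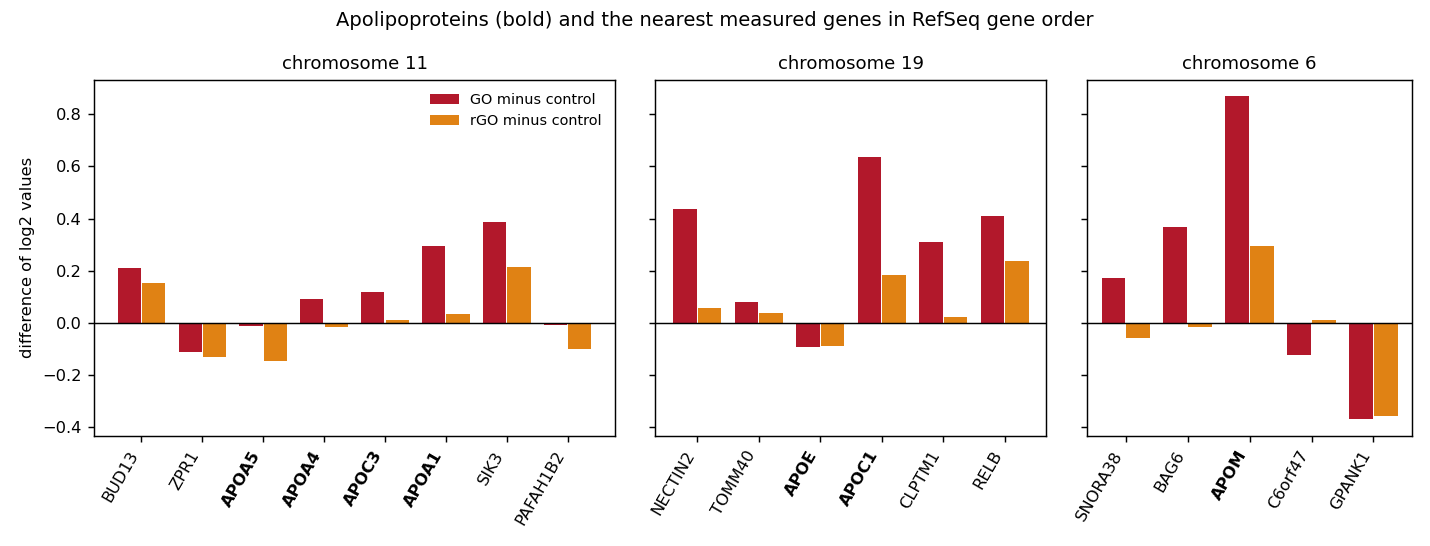
Difference of log2 values (vertical axis) for GO minus control (red bars) and rGO minus control (orange bars) in apolipoproteins (bold) and the nearest measured genes, in RefSeq gene order along chromosomes 11, 19 and 6 (horizontal axis). The 4 genes of chromosome 11 go up from APOA5 to APOA1, in steps of which some are smaller than the probe set spread. APOC1 (0.64 with GO) stands beside APOE (-0.09), and APOM (0.87) stands above both of its neighbours.

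The genes past the filter whose pair of differences from control was nearest to that of APOM, by Euclidean distance over the GO and rGO differences (3 arrays), were SNORA5A, FAM13A, SLC2A14, FHL3 and LOX. SNORA5A, a small nucleolar RNA, stood at 0.85 with GO and 0.22 with rGO, a distance of 0.074. FAM13A, in the same order, stood at 0.87 and 0.22, the glucose transporter gene SLC2A14 at 0.86 and 0.22, FHL3 at 0.82 and 0.22, and the collagen cross-linking enzyme gene LOX at 0.77 and 0.25, a distance of 0.109. None of the 5 is an apolipoprotein, and the likeness rests on 2 differences that share the control array.

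Genes that build, remodel and take up the particles were set beside the family in 6 lists. For the list counts that follow, the shares of all genes past the filter at 1.5-fold were 1.91% higher and 4.23% lower with GO. With rGO they were 0.0271% and 0.127%. In the list of assembly and secretion, 20 of 22 genes passed the filter, 0 reached 1.5-fold on the high side and 2 on the low side with GO, and the median was -0.01 (GO) and -0.01 (rGO). The 2 genes on the low side were ACAT2 and DGAT1. ACAT2, an enzyme of sterol synthesis in the cytosol and not of particle assembly, was at 10.05 (GO), 10.85 (rGO) and 10.82 (control). DGAT1, which makes triglyceride, was at 9.61 (GO), 10.19 (rGO) and 10.30 (control). The lipid droplet protein PLIN2 stood at 0.58 (GO) and -0.05 (rGO). MTTP, which loads lipid onto APOB, had rGO minus control of -0.15, the second largest difference in size among the list's genes past the filter, after A1CF (0.17), the cofactor of APOB RNA editing, and SAR1B, a GTPase of the vesicles that export APOB particles, had -0.14. With GO, MTTP and SAR1B stood at -0.46 and -0.33, while APOB itself stood at 0.04.

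Of proteins other than the members that travel with lipoproteins or share the apolipoprotein name, 23 were listed, 19 were measured and 10 passed the filter, with medians of -0.01 (GO) and -0.03 (rGO), and with GO 1 gene reached 1.5-fold on the high side and 2 on the low side. PON3, a lactonase on HDL, stood at -1.33 (GO) and -0.31 (rGO). APOL1, an HDL protein that lyses trypanosomes, stood at 0.79 (GO) and 0.10 (rGO), and APOO, a mitochondrial inner membrane protein, at -0.65 (GO) and -0.08 (rGO). With rGO the largest differences in size after PON3 among genes past the filter were APOL2 at 0.18 and the mitochondrial APOOL at -0.13. The HDL proteins APOM and APOA1 and the HDL enzyme PON3 thus lay on opposite sides of control on the GO array.

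Among remodelling genes and lipases, 11 of the 14 measured (18 listed) passed the filter, 0 reached 1.5-fold in either direction, and medians were 0.02 (GO) and -0.06 (rGO, 0.0070 over 7 genes with a 60th percentile filter). PLTP, which moves phospholipid onto HDL, stood at 0.57 (GO) and 0.07 (rGO), the lipase PNPLA3 at -0.37 (GO), and LMF2, related to a factor that matures lipases, at 0.31 (GO). With rGO the protease FURIN stood at -0.22, and the lipase regulators ANGPTL8 and ANGPTL4 at 0.09 and -0.09. Among receptors and their regulators, 10 of the 15 measured (20 listed) passed, 0 reached 1.5-fold, and medians were 0.10 (GO) and 0.05 (rGO). LRP5 stood at 0.54 (GO), the HDL receptor SCARB1 at 0.41 (GO) and 0.13 (rGO), the APOE receptor LRP8 at -0.35 (GO) and 0.13 (rGO), and the remnant receptor LRP1 at 0.11 (rGO). With no level filter the receptor median was -0.02 for GO minus control, over 15 genes.

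In the efflux list 8 of 11 genes passed, 1 was at least 1.5-fold higher and 0 lower with GO, and medians were 0.01 (GO) and 0.03 (rGO). NPC1, which exports cholesterol from lysosomes, stood at 0.59 (GO), the sterol-binding OSBPL2 at 0.33 (GO) and 0.14 (rGO), and the sterol exporter ABCG8 at -0.33 (GO), while with rGO the phospholipid exporter ABCB4 stood at -0.15 and NPC1 at 0.10. Of 35 listed transcription regulators of apolipoproteins 29 were measured and all 29 passed. With GO, 22 of them (75.9%) lay above 0, beside 51.1% of all genes past the filter, and 0 reached 1.5-fold. The medians of this list were 0.07 (GO) and 0.01 (rGO). TCF7L2 stood at 0.57 (GO) and 0.20 (rGO), PPARG at 0.53 (GO), and CEBPA, a main activator of hepatocyte genes, at -0.55 (GO). With rGO, MLXIPL, the glucose-sensing factor, stood at 0.29 and FOXO3 at -0.29. NR5A2 and FOXA2, whose motif cores were looked for above and which were named after their values were seen, stood at 0.19 and 0.35 (GO) and at 0.05 and 0.05 (rGO), and the related FOXA1 and FOXA3 at 0.07 and 0.08 (GO) and at 0.01 and -0.18 (rGO).

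**Figure D4:**
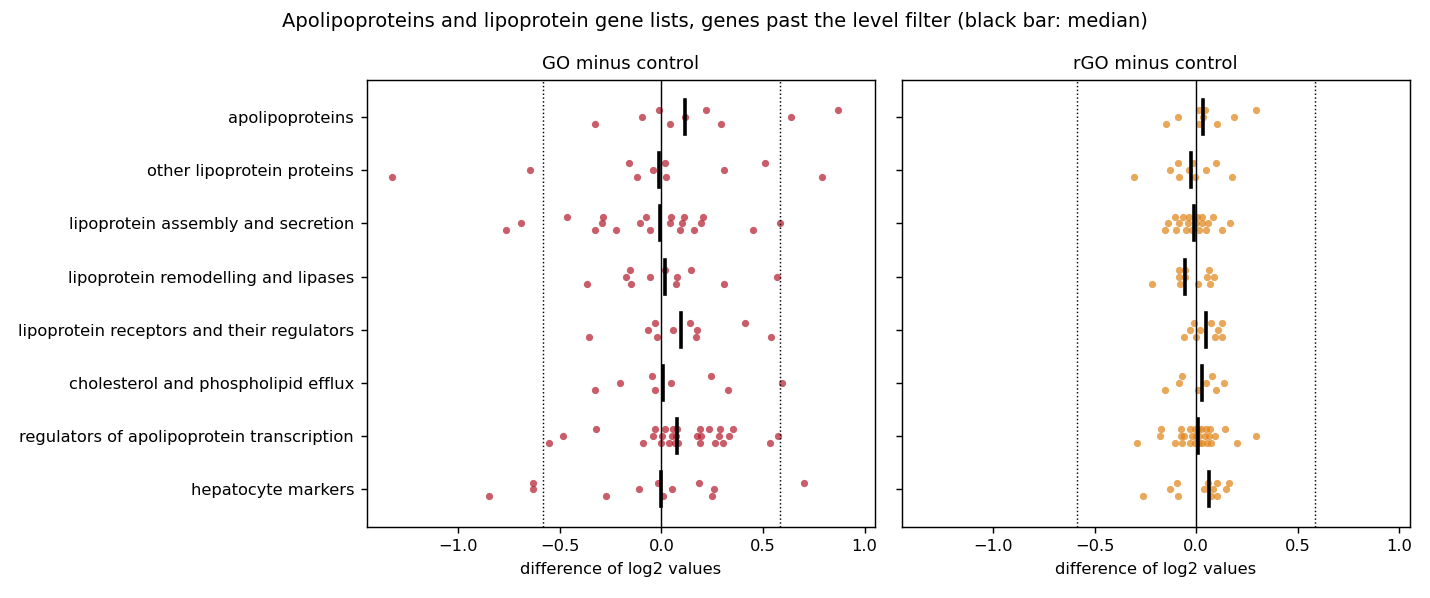
Difference of log2 values (horizontal axis) for GO minus control (left, red) and rGO minus control (right, orange) in the apolipoproteins, 6 lipoprotein gene lists and the hepatocyte markers (rows), with 1 point for each gene past the level filter, black bars at list medians and dotted lines at 1.5-fold. The apolipoprotein median is 0.12 with GO and 0.03 with rGO over 9 genes, and the range of the points is wider with GO than with rGO in each row.

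Other secreted hepatocyte proteins lay on both sides of control with GO. The 12 hepatocyte markers had a median of -0.0031 for GO minus control, with 6 above 0, 1 past 1.5-fold on the high side and 3 on the low side. Of all genes past the filter, 51.1% lay above 0, 1.91% were at least 1.5-fold higher and 4.23% lower. The retinol and thyroxine carrier TTR stood at 0.70, whereas the fibrinogen chains FGB and FGG stood at -0.85 and -0.63 and haptoglobin (HP) at -0.63. The remaining fibrinogen chain, FGA, stood at 0.05. Albumin (ALB) stood at -0.01 and so lay close to APOB and APOA5. For rGO minus control the median of these markers was 0.07, and 0 of the 12 reached 1.5-fold.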

How the data were processed

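Total RNA (300 ng per sample) from 1 GO, 1 rGO and 1 control sample was made into biotin-labelled cDNA and hybridised to Affymetrix arrays, per the labels' protocols. The authors deposited log2 expression values for 33297 probe sets; RMA and MAS5 are named in the submitters' processing notes, with no role or version, and no genome build or annotation is given in the sources used here. The deposited log2 values look normalized between arrays and are not centred per gene; any other scaling is unknown. Probe sets were named through the platform annotation, which can be old: 19460 had 1 symbol and were used, 1754 had several and 12083 had none listed.

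A gene was represented by its probe set with the highest mean, and the level filter kept genes whose mean reached the 40th percentile. Comparisons were differences of log2 values between single arrays; genes were counted at 1.5-fold (0.58 log2 units) and no test was run. Precision is limited by the number of arrays. The members, gene lists and alternatives were chosen with earlier results of these data known. All 10 members were to be named, with, for each list, the 3 genes furthest from control in each exposure, the nearest measured neighbour on each side of a member and the 5 genes most like the member furthest from control with GO; second neighbours appear in a figure and hepatocyte markers in the text by choice after their values were seen. Neighbours came from RefSeq gene order, with 19429 of 19460 probe sets matched by Entrez ID. The counting and the scalings were tested on simulated data. Alternatives were quantile normalization, median centring, loess (span 0.3), no filter, a 60th percentile filter, averaging the probe sets of a gene, and sizes of 1.2-fold and 2-fold. Calculations ran in Python 3.11.15 with pandas 2.3.3 and numpy 2.4.6, the loess came from statsmodels 0.14.6, and figures were drawn with matplotlib 3.10.9.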

Additional observations from a re-analysis of the deposited data

How the results depend on the processing

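No paired analysis was possible because each group had 1 array, and no replicate could be left out. The 3 apolipoprotein medians stayed within the probe set spread of their values under quantile normalization, median centring, loess, both other filters and averaged probe sets. For GO minus rGO the number of members at least 1.5-fold higher was 1 after quantile normalization, 1 after median centring and 1 after loess, against 0. This was APOM, whose difference ranged from 0.58 to 0.63. Of all genes past the filter, 2.14%, 2.18% and 1.91% were that much higher after these 3 rescalings, against 1.82%. At 2-fold 0 members were higher with GO, against 2 at 1.5-fold, where 0.253% and 1.91% of all genes were. At 1.2-fold 1 member was lower with GO (APOH), 1 was higher with rGO (APOM), and for GO minus rGO 2 were higher and 1 was lower. Of all genes, 14% and 17% were then higher and lower with GO, and 1.53% and 3.06% with rGO. For GO minus rGO these shares were 12.8% and 14.8%. Of the 120 alternative values of single members 119 moved by less than the probe set spread, the exception being APOA1 for GO minus rGO after quantile normalization (0.34, against 0.26). The sign depended on the scaling for APOA5 (GO minus control), APOE (GO minus rGO) and APOH (rGO minus control), and, under median centring and with averaged probe sets, for APOC3 (rGO minus control); all of these lay within 0.04 of 0. Some list medians near 0 changed sign too, for assembly and for other lipoprotein proteins (GO minus control) and for regulators (rGO minus control) after quantile normalization or median centring, for efflux and receptors (GO minus control) with no filter, for remodelling (rGO minus control) with the 60th percentile filter, and for other lipoprotein proteins (GO minus rGO) with either of these filters. With no filter 14 genes were at least 1.5-fold higher and 52 lower with rGO among 18417, against 3 and 14; the cause was not tested.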

Other observations

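The paraoxonases PON1 and PON3, antioxidant lactonases that circulate on HDL with APOA1 and APOM, gave values chosen here after they were seen. PON3 was at 8.96 with GO, 9.98 with rGO and 10.29 in control, and PON1 was at 5.38 with GO, 5.93 with rGO and 6.26 in control. Both had control highest and GO lowest, the reverse of the order in 6 members, among them APOM, APOA1 and APOA2. In APOA1 the step between rGO and control, 0.03, was smaller than the probe set spread of 0.059. APOE had the order of the paraoxonases, with GO and rGO differing by only -0.0035. Of all genes past the filter, 24.3% had the order of the paraoxonases and 24.2% the reverse, so both orders were common. PON1 lay below the level filter on all 3 arrays, where background can distort a difference.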
